A study of Drosophila melanogaster with 2 samples.

Results

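The genes described here encode the proteins of the mitochondrial ribosome of Drosophila melanogaster, and they were examined for H3K27ac in the pupal wing. Members were the protein-coding genes of the dm6 assembly whose symbol begins with mRpL or mRpS followed by a number. There were 73 of them among 13922 protein-coding genes of the chromosome arms (unplaced scaffolds were left out), with 47 named for the large and 26 for the small subunit. A peak was assigned to a member when it overlapped the gene span extended by 500 bp on each side. The material was pupal wings of males of the transgenic line D2 at 67% of pupal development, profiled by CUT&RUN, an assay in which antibody-bound nuclease cuts out the chromatin that carries the mark. There were 2 biological replicates of 35 to 45 pooled wings each, which form 1 group, so all statements are descriptions of 2 peak lists and no test between conditions was possible. Both replicates share the line, the sex, the stage and the light crosslinking, and no other stage, genotype or control library was analysed here. In pooled wings, a mark in fewer cells and a weaker mark in each cell cannot be told apart.

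The mitochondrial ribosome translates the few messages of the mitochondrial genome, all of which encode core subunits of the respiratory chain and the ATP synthase. Its RNAs come from mitochondrial DNA, whereas its proteins are encoded in the nucleus, made in the cytoplasm and imported. Many of the proteins have bacterial counterparts and share their numbers, while those with higher numbers were first named from mitochondrial ribosomes. H3K27ac is an acetylation of histone H3 that is found at active promoters and enhancers.

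The list of replicate 1 held 14461 peaks and that of replicate 2 held 26420. The peak values gave a genome-wide background of 13.8 fragments in replicate 1 and 27.1 in replicate 2, so that the second list reached weaker peaks. The median fold enrichment, the ratio of the summit pileup to the caller's background with 1 added to each, was 2.43 and 2.07 over all peaks. As a check of the tissue, 9 of 9 wing genes, among them vg, nub, ap and sd, had a peak in both lists, against 49.9% of all protein-coding genes. The same held for 1 of 6 muscle, 1 of 5 neuronal, 0 of 5 hemocyte, 1 of 4 fat body, 1 of 2 tracheal and 1 of 4 testis and germline genes. The replicate 2 list held peaks at 5 of 5 hemocyte, 5 of 5 neuronal and 3 of 6 muscle genes, against 70.6% of all protein-coding genes. Of these, 5 hemocyte, 4 neuronal and 2 muscle genes had none in replicate 1. The wing genes were also the longest of these lists, with a median of 21324 bp. Tracheal genes stood at 16784 bp, neuronal at 13992 bp, hemocyte at 13948 bp and muscle genes at 6767.5 bp. Fat body genes stood at 2754.5 bp and germline genes at 2798 bp, and the part of gene length in this check was not tested. The part of other cell types in the values below was not tested either.

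Of the 73 members, 43 (58.9%) had a peak in replicate 1, against 52.6% of all protein-coding genes, and 51 (69.9%) had one in replicate 2, against 70.6%. In both lists, 38 members (52.1%) had a peak, against 49.9%. The share of marked members was thus near that of protein-coding genes at large. The peaks of the replicates overlapped each other at 34 members (46.6%, against 46.8%). A further 13 members (17.8%, against 20.7% of all protein-coding genes) had a peak in replicate 2 and none in replicate 1. Another 5 (6.85%, against 2.68%) had one in replicate 1 and none in replicate 2, and 17 (23.3%, against 26.7%) had none in either list. A gene without a listed peak lies below the caller's threshold, and its level of H3K27ac is not given by the lists.

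**Figure D1:**
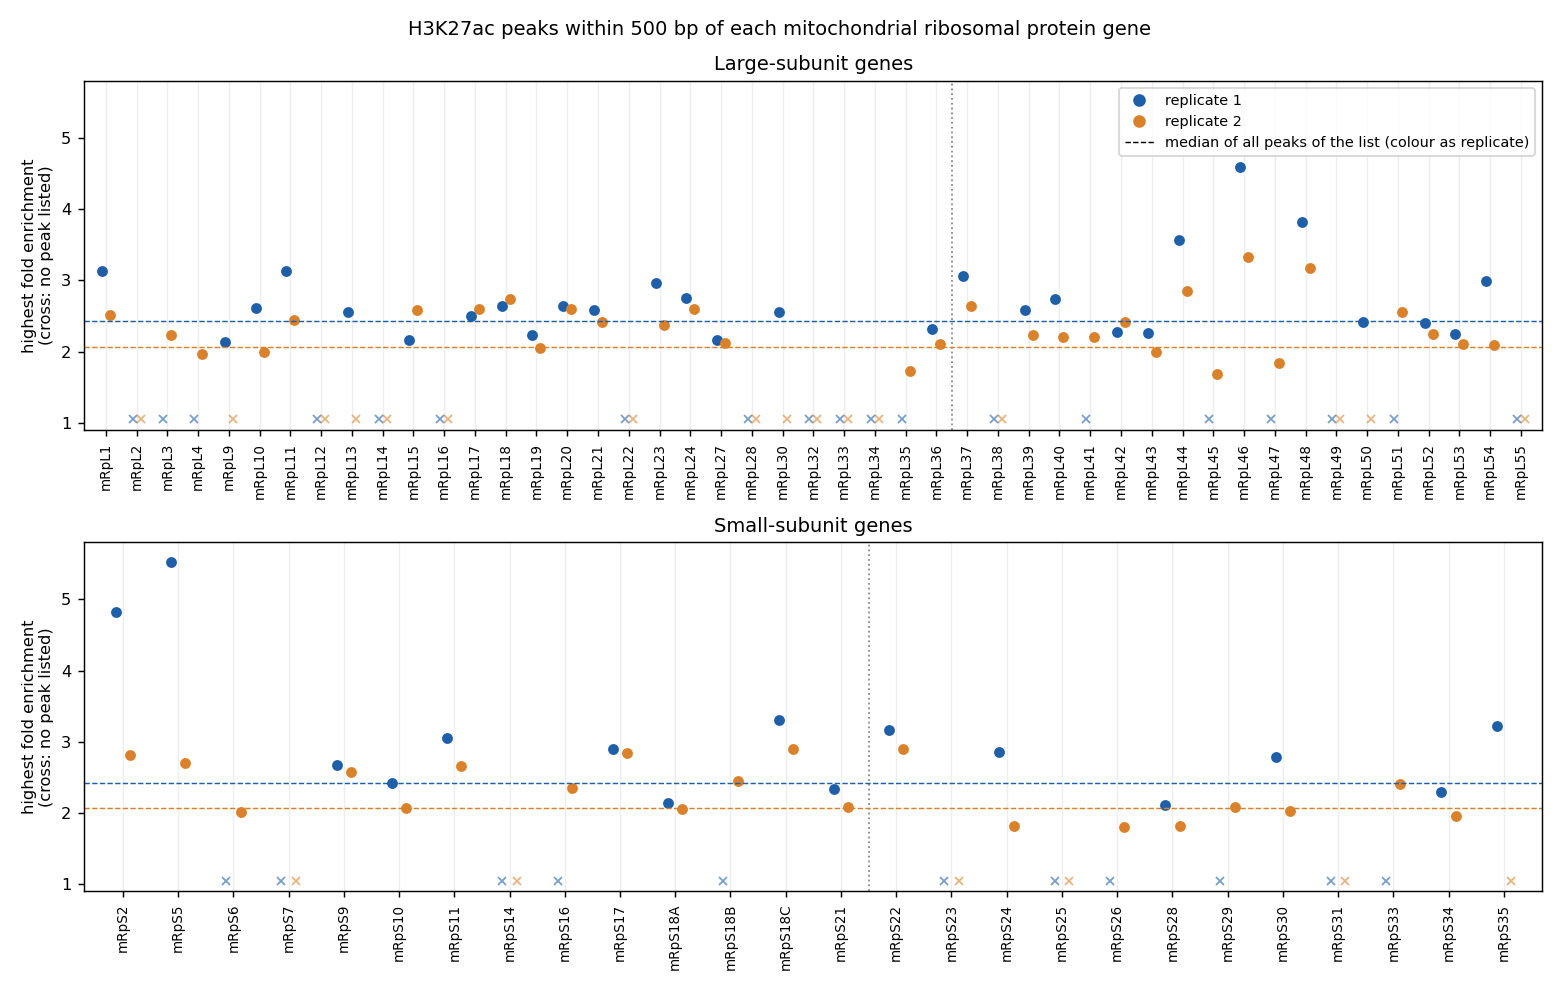
Highest fold enrichment (vertical axis, ratio to the caller's background) of the peaks within 500 bp of each of the 73 mitochondrial ribosomal protein genes (horizontal axis), with replicate 1 in blue and replicate 2 in orange, crosses where no peak is listed, and dashed lines at the median of all peaks of each list (2.43 and 2.07). Dotted vertical lines separate the numbers shared with bacterial proteins from the higher ones, and mRpS5, mRpS2 and mRpL46 stand highest in replicate 1.

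The members are short genes with close neighbours. Their median length was 909 bp, against 2163 bp for all protein-coding genes, and 70 of them were at most 2000 bp long. Another protein-coding gene overlapped 43 members and lay within 500 bp of 72. The exception was mRpS5, with 135581 bp to nvd, its nearest protein-coding neighbour. Close neighbours were common elsewhere too, since 11755 of the 13922 protein-coding genes had another gene of any kind within 500 bp. The share overlapped by another gene was not computed for all protein-coding genes. Among protein-coding genes of up to 2000 bp, a limit chosen after seeing the data, 35.9% had a peak in replicate 1, 55.9% in replicate 2 and 33.1% in both, whereas 35 of the 70 short members (50.0%) had one in both. The comparison with all genes therefore changed with the gene length admitted.

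It also changed with the window. Over the gene span itself, without extension, 21 members (28.8%) had a peak in both lists, against 39.7% of all protein-coding genes and 21.3% of those up to 2000 bp. With an extension of 1000 bp, 51 members (69.9%) had one, against 56.4%. Within 500 bp of either gene end, 37 members (50.7%) had a peak in both lists. The share was 39.3% of all protein-coding genes and 32.6% of the short ones. For a gene of up to 1000 bp this window is the whole extended span, while it leaves out the inner part of longer genes. The 37 members were thus nearly the 38 of the extended span, and short genes likewise stood at 32.6 and 33.1%. For all protein-coding genes the share fell from 49.9 to 39.3%, and the part of gene length was not tested. Strand was not used here, so that start and end of a gene were not separated.

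**Figure D2:**
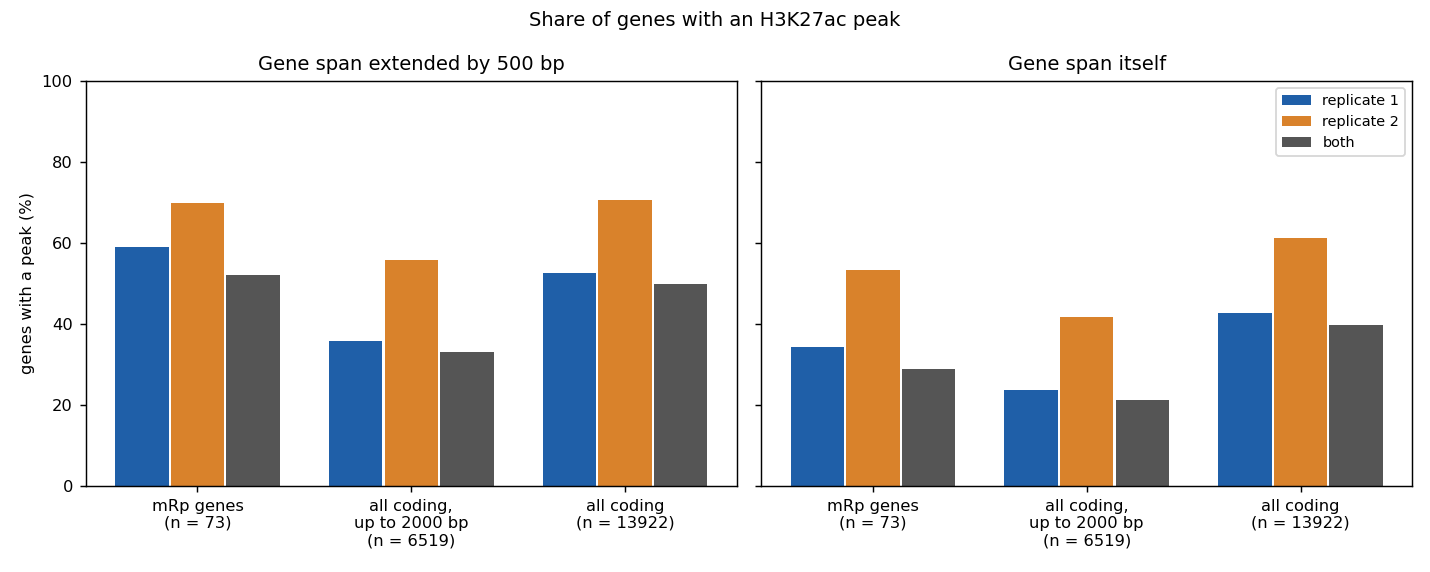
Percentage of genes (vertical axis, from 0 to 100%) with a peak in replicate 1 (blue), in replicate 2 (orange) and in both (grey), for the members, for protein-coding genes of up to 2000 bp and for all protein-coding genes (horizontal axis). In the extended span 52.1% of members, 33.1% of short genes and 49.9% of all genes had a peak in both lists, and over the gene span itself the figures were 28.8, 21.3 and 39.7%.

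Of the 21 members with a peak over the gene itself in both lists, 18 were at most 2000 bp long. The peaks of the replicates overlapped each other at all 21. Overlap was usual, as 39.7% of all protein-coding genes had such a peak in both lists and 37.5% had overlapping ones. The 21 members comprised 6 large-subunit genes of bacterial number (mRpL1, mRpL10, mRpL15, mRpL17, mRpL19 and mRpL20) and 7 of higher number (mRpL37, mRpL42, mRpL46, mRpL48, mRpL52, mRpL53 and mRpL54). On the small-subunit side they were mRpS5, mRpS9, mRpS10, mRpS11 and mRpS17, with bacterial numbers, and mRpS22, mRpS30 and mRpS34. The highest such peak touched no other gene in either list at 13 of the 21, a count not made for other genes. Peaks covered a median of 27.8% of the gene in replicate 1 and 37.3% in replicate 2. In replicate 1 the covered percentage ran from 3.09 at mRpL48 to 87.5 at mRpL42, and in replicate 2 from 2.29 at mRpS5 to 60.3 at mRpL52.

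The other 17 members with a peak in both lists reached it through the flank in at least one list. They were 23.3% of members, against 10.1% of all protein-coding genes and 11.8% of those up to 2000 bp. For 8 of them (mRpL11, mRpL24, mRpL27, mRpL43, mRpS2, mRpS18C, mRpS21 and mRpS24) no peak touched the gene in either list. For 7 (mRpL18, mRpL21, mRpL23, mRpL36, mRpL39, mRpL40 and mRpL44) a peak touched the gene in replicate 2 only, and for mRpS18A and mRpS28 in replicate 1 only. The summit of the highest peak of these 17 members lay inside another gene in 15 cases in replicate 1 and in 13 cases in replicate 2. The flank therefore mostly meant sequence of a neighbouring gene.

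In all members with a peak, summits were divided between the member and its neighbours. In replicate 1, the highest summit lay inside the member at 19 of 43, inside another gene at 22 and between genes at 2. In replicate 2, it lay inside the member at 25 of 51, inside another gene at 21 and between genes at 5. Among all protein-coding genes with a peak, 63.9 and 63.6% had the summit inside the gene itself, and among those up to 2000 bp 45.3 and 49.8%, against 44.2 and 49% of members. The summit lay inside another gene at 51.2 and 41.2% of members. For all protein-coding genes this share was 24.9 and 22%, and for those up to 2000 bp 40.5 and 33.5%. Of the 38 members with a peak in both lists, 11 had the summit inside the member in both, 14 inside another gene in both, and 13 another combination. Only mRpS5 and mRpS30 had, in both lists, a peak that came within 500 bp of no other gene. This count and the split of the 38 members were not made for other genes. Of the 13922 protein-coding genes, 11755 had another gene within 500 bp. The peaks cannot be assigned to one of several neighbouring genes from these lists.

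**Figure D3:**
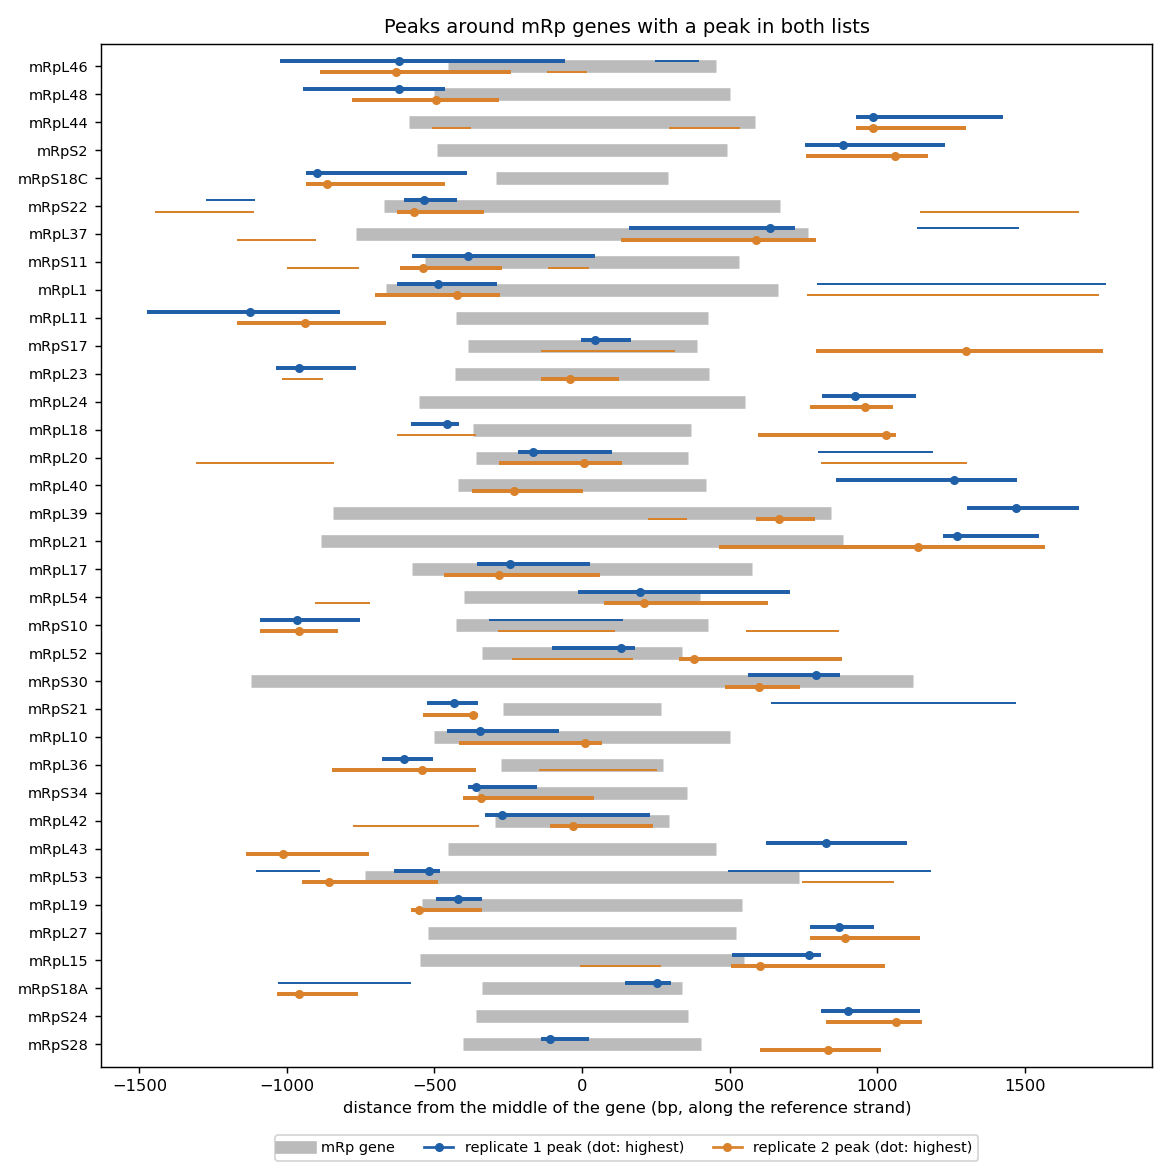
Map of the peaks at 36 of the 38 members with a peak in both lists, drawn to scale in bp from the middle of the gene (horizontal axis), with the gene as a grey bar, replicate 1 peaks in blue above and replicate 2 peaks in orange below, and a dot at the summit of the highest peak. Members run from the highest (mRpL46) to the lowest (mRpS28) by the lower of their percentiles, and the long genes mRpS5 and mRpS9 are left out.

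Among small-subunit genes of bacterial number, 9 of 14 (64.3%) had a peak in both lists and 2, mRpS7 and mRpS14, had none. The share in both lists was 49.9% of all protein-coding genes and 33.1% of those up to 2000 bp. Differences between the classes by number were not tested. The highest fold of any member in replicate 1 stood at mRpS5, whose bacterial counterpart sits near the entry of the messenger RNA (3L, 24537236 to 24543534, 6299 bp). Its peak in replicate 1 was 703 bp wide with 81 fragments (exact Poisson interval 64.3 to 100.7 at 95%, for counting error only) and a fold enrichment of 5.53. In replicate 2 it was 144 bp wide with 75 fragments (59.0 to 94.0) and a fold of 2.70. Both peaks lay inside the gene and overlapped by 79 bp. Within their own lists they stood at percentiles 99.7 and 89.4, where 100 marks the highest fold of a list. This gene was high in both lists, although the width differed between them.

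The next gene in replicate 1 was mRpS2 (2L, 4849439 to 4850419), named for a bacterial protein between the head and the body of the subunit. It had folds of 4.82 in replicate 1 and 2.82 in replicate 2 (percentiles 99.4 and 92.3). Both peaks lay 273 and 274 bp beyond the gene, inside its neighbour Mon1, a factor of endosomal trafficking. The gene itself carried no peak in either list.

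Several other genes of this class were above the median of their lists. For mRpS11, which has a bacterial counterpart on the platform of the subunit, the folds were 3.05 and 2.66 from peaks over the gene. For mRpS17, named for a bacterial protein that binds ribosomal RNA, they were 2.90 and 2.84. The highest peak lay inside mRpS17 in replicate 1 and inside Nop60B, a pseudouridine synthase gene, in replicate 2, where a second peak of 2.83 lay inside mRpS17. The long gene mRpS9 (13391 bp) contained wtrw, a TRP channel gene, and overlapped ArgRS-m. Its folds of 2.67 and 2.58 came from peaks that touched wtrw, one of 3 peaks in replicate 1 and of 4 in replicate 2.

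Flies have 3 genes named for the bacterial S18 protein, and they differed in the lists. At mRpS18C the folds were 3.31 and 2.90, both from a peak inside CG15535. At mRpS18A the highest folds were 2.14, inside the gene, and 2.06, inside pch2. The highest peaks of mRpS18A did not overlap, while a second replicate 1 peak overlapped that of replicate 2. At mRpS18B no peak was listed in replicate 1, and one of 2.45 lay inside the gene in replicate 2. The human counterpart of mRpS18A belongs to the large subunit.

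Among small-subunit genes of higher number, 5 of 12 (41.7%, against 49.9% of all protein-coding genes) had a peak in both lists and 3 (mRpS23, mRpS25 and mRpS31) had none. The highest of those with a peak in both lists was mRpS22 (3R, 27916908 to 27918248), with folds of 3.17 and 2.90 from overlapping peaks inside the gene, on 46 and 93 fragments. The only X-linked member with a peak in both lists was mRpS30 (X, 15786047 to 15788288), whose human counterpart is likewise found in the large subunit. It had 2.79 in replicate 1 and 2.03 in replicate 2, from overlapping peaks inside the gene. For mRpS24 the percentiles were 78.0 and 17.4 (folds 2.86 and 1.82), from peaks inside Apc2. For mRpS29, whose human counterpart is a GTP-binding protein, 4 peaks of up to 2.09 were listed in replicate 2 and none in replicate 1. With a -log10 q of at least 5, a stricter cut of the lists, 1 of these 12 genes had a peak in both, beside 7 of 14 small-subunit genes of bacterial number. The large-subunit counts under this cut were 10 of 28 for bacterial and 9 of 19 for higher numbers, and the share of all protein-coding genes was 39.1%.

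Among large-subunit genes of bacterial number, 13 of 28 (46.4%, against 49.9% of all protein-coding genes) had a peak in both lists and 9 had none. The protein counterparts of mRpL1, mRpL10, mRpL11 and mRpL12 in bacteria lie at or near the stalks of the subunit, where transfer RNAs leave or translation factors bind. The folds at mRpL1 were 3.14 and 2.52, from overlapping peaks over the gene (3R, 8301440 to 8302770). It also had the longest stretch covered in both lists, 693 bp of the extended span, which includes a second pair of peaks inside nac. At mRpL11 they were 3.13 and 2.44, from peaks inside HtrA2, a mitochondrial protease gene. At mRpL10 they were 2.62 and 2.00, and mRpL12 had no peak in either list. The genes for the proteins of the stalk regions thus ranged from no listed peak to a percentile of 87.1 in replicate 1, at mRpL1.

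The counterparts of mRpL2, mRpL3, mRpL4 and mRpL22 in bacteria lie at the catalytic centre or along the exit tunnel. No peak was listed for mRpL2 and mRpL22 in either list, and none in replicate 1 for mRpL3 and mRpL4, which had 2.24 and 1.97 in replicate 2. For mRpL23, named for a protein at the mouth of the tunnel, the highest folds were 2.96 and 2.37. The replicate 1 peak lay inside CG8993, and the highest one of replicate 2 inside mRpL23.

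Among large-subunit genes of higher number, 11 of 19 (57.9%, against 49.9% of all protein-coding genes) had a peak in both lists and 3 (mRpL38, mRpL49 and mRpL55) had none. The highest member by the lower of both percentiles was mRpL46 (3L, 1777439 to 1778347). Its peaks were 953 and 636 bp wide, with 96 and 142 fragments, folds of 4.59 and 3.33 and percentiles of 99.2 and 97.8. They spanned the space between mRpL46 and its neighbour CG2021, also touched PolD2, a DNA polymerase delta subunit gene, and had their summits in CG2021. Each list also had a lower peak inside mRpL46 (2.05 and 1.69), at places that did not overlap between the replicates. Next came mRpL48 (2L, 1710462 to 1711465), with 3.82 and 3.17 from a peak over the gene end that also touched CG17660. In replicate 1 its summit lay inside CG17660, 119 bp from mRpL48, and the peak covered 31 bp of mRpL48. In replicate 2 the summit lay inside mRpL48. The highest peaks at mRpL46 and mRpL48 were among the highest of their lists in both replicates.

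At mRpL44, whose protein has an RNase III-like fold, the folds were 3.57 and 2.85 from a peak inside Snr1, a SWI/SNF subunit gene. At mRpL37 (3R, 10782563 to 10784092) they were 3.06 and 2.64, from overlapping peaks over the gene that touched no other. At mRpL54 they were 3.00 and 2.09, from peaks that also touched the chitinase gene Cht8. At mRpL45, whose human counterpart lies at the inner membrane side of the exit, 1 peak of 1.69 was listed in replicate 2. No peak was listed for mRpL55, a protein of animal mitochondrial ribosomes.

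Agreement between the replicates was measured within the lists, because the fold depends on depth. For the 38 members with a peak in both lists, the Spearman correlation of the highest fold was 0.69, as a description over genes that share 2 libraries, and 0.50 over the 6945 protein-coding genes of this kind. The percentiles of the replicates differed by a median of 11.7 points. They differed by more than 25 points at 8 members. The largest differences were at mRpL15 (24.7 and 85.7), mRpS24 (78.0 and 17.4) and mRpL42 (34.9 and 78.4), followed by mRpL54 (83.2 and 52.4), mRpL27 (25.4 and 55.8) and mRpS30 (74.9 and 44.7). At 4 members, mRpL39, mRpL40, mRpL43 and mRpS28, the peaks of the replicates did not overlap. At mRpL39 the replicate 1 peak lay inside the proteasome gene Prosbeta2 and that of replicate 2 inside mRpL39.

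**Figure D4:**
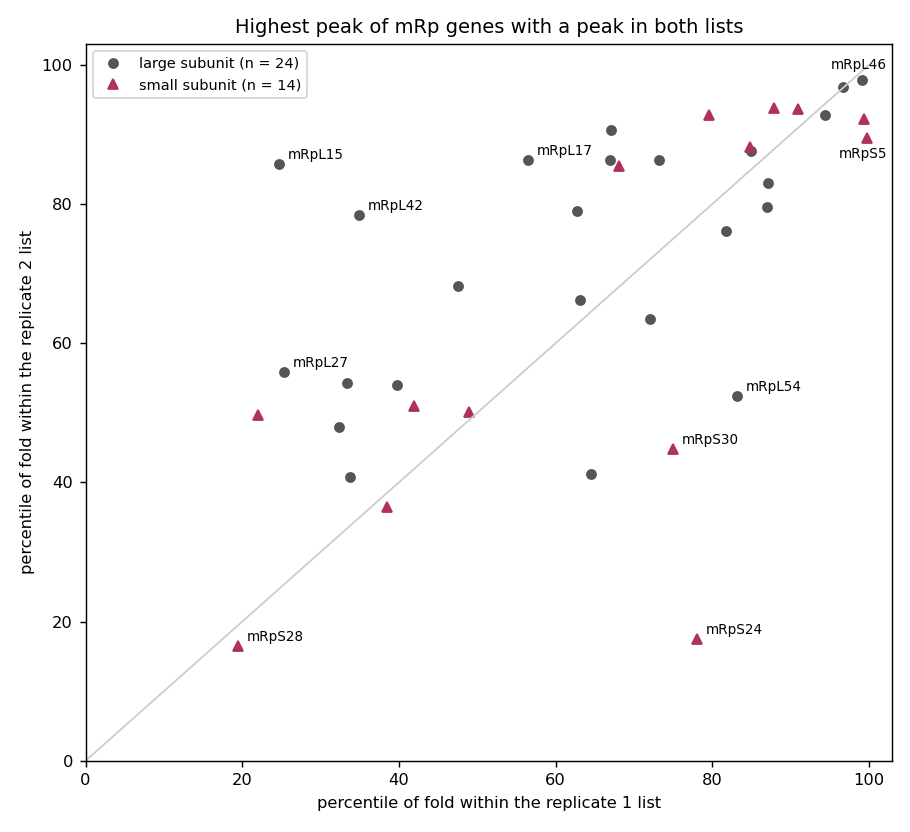
Percentile of the highest peak of each of the 38 members with a peak in both lists, within the replicate 1 list (horizontal axis) and the replicate 2 list (vertical axis), with circles for the 24 large-subunit and triangles for the 14 small-subunit genes and a line of equal percentiles. The members at the upper right, among them mRpL46 and mRpS5, were high in both lists, while mRpL15 and mRpS24 lie far from the line.

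The heights of the listed peaks were close to those of other genes. The median of the highest fold was 2.64 in replicate 1 and 2.25 in replicate 2 over members with a peak, against 2.75 and 2.31 over all protein-coding genes with one. The median percentiles were 67.0 and 68.2, against 72.7 and 72.7 for all genes and 68.1 and 63.2 for genes of up to 2000 bp. Of the 38 members with a peak in both lists, 25 exceeded the median of all peaks in replicate 1 and 30 in replicate 2. This compares the highest peak of a gene with single peaks, and the count was not made for other genes. Their median percentile of 72.7 was likewise above the middle of each list. The lowest of the 38 members was mRpS28 in each list, at 2.11 and 1.81. Pileups at the highest peaks ran from 37 to 96 fragments in replicate 1 and from 56 to 142 in replicate 2.

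Members with a peak in 1 list only were mostly listed in the deeper one. The 13 genes listed in replicate 2 only were mRpL3, mRpL4, mRpL35, mRpL41, mRpL45, mRpL47, mRpL51, mRpS6, mRpS16, mRpS18B, mRpS26, mRpS29 and mRpS33. Their highest folds ran from 1.69 to 2.56, 6 of them were below the median of that list, and at 11 a peak touched the gene itself. The 5 genes listed in replicate 1 only were mRpL9, mRpL13, mRpL30, mRpL50 and mRpS35, with folds from 2.14 to 3.22. The highest of these was mRpS35, from a peak 162 bp beyond the gene inside Pgant6.

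The limit of 500 bp set a few of these cases. In replicate 1 the outermost peaks admitted lay 470 bp from mRpL39 (2.59), 460 bp from mRpS24 (2.86) and 447 bp from mRpL40 (2.73). The nearest ones left out lay 514 bp from mRpL14 (2.10), 522 bp from mRpL18 (2.32) and 568 bp from mRpL2 (2.40). In replicate 2 the outermost peaks admitted as a gene's only one lay 477 bp from mRpL35 (1.73) and from mRpS24 (1.82), and the nearest left out lay 503 bp from mRpL13 (2.17).

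The X chromosome, single in males, held 11 members. Of these, 8 had no peak in either list, namely mRpL14, mRpL16, mRpL22, mRpL33, mRpL38, mRpL49, mRpS14 and mRpS25. A peak was listed at mRpL30 in replicate 1 only (2.56), at mRpL3 in replicate 2 only (2.24) and at mRpS30 in both. In replicate 1 a peak was thus listed at 2 of 11 X-linked members, against 36.7% of protein-coding genes on X, and in replicate 2 likewise at 2, against 41.7%. In both lists it was 1 of 11 (9.09%), against 28.3% of the 2197 protein-coding genes on X and 10.3% of the 883 of up to 2000 bp. On 2L, 2R, 3L and 3R, 41 of 62 members had a peak in replicate 1, against 55.5% of protein-coding genes there, and 49 had one in replicate 2, against 76%. In both lists 37 of 62 had a peak (59.7%), against 53.9% of all protein-coding genes there and 36.7% of the short ones. The 9 autosomal members without a peak in either list were mRpL2, mRpL12, mRpL28, mRpL32, mRpL34, mRpL55, mRpS7, mRpS23 and mRpS31. Both for members and for other short genes, the share was lower on X than on the large autosomal arms. Both replicates are male, so that the chromosome and its copy number cannot be told apart.

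**Figure D5:**
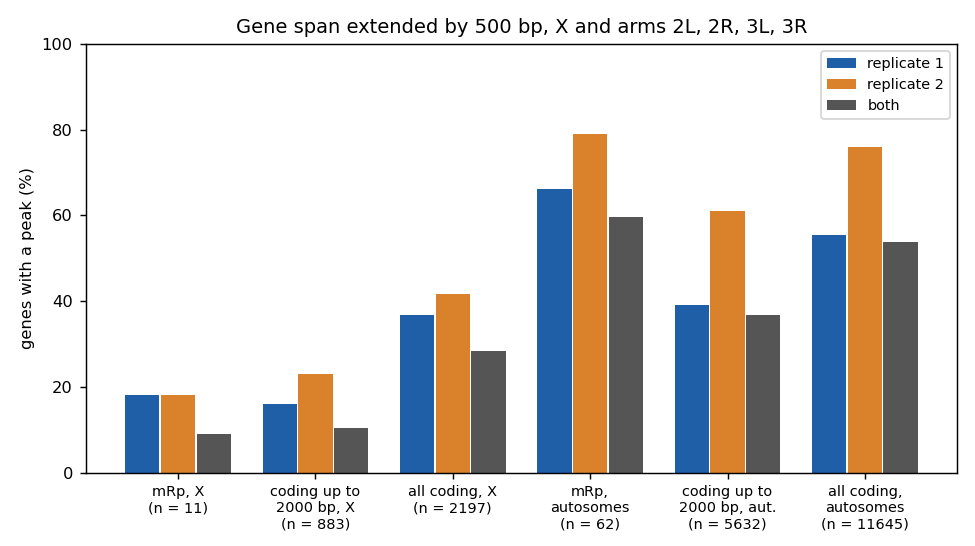
Percentage of genes with a peak in the span extended by 500 bp (vertical axis, from 0 to 100%) in replicate 1 (blue), replicate 2 (orange) and both (grey), for members, for protein-coding genes of up to 2000 bp and for all protein-coding genes, on X and on 2L, 2R, 3L and 3R. In both lists 9.09% of the 11 X-linked and 59.7% of the 62 autosomal members had a peak, against 10.3 and 36.7% of short genes.

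By arm, 5 of 12 members on 2L, 8 of 12 on 2R, 10 of 17 on 3L and 14 of 21 on 3R had a peak in both lists, against 48.7, 56.8, 55.2 and 54.5% of protein-coding genes. No member lay on 4. The small numbers per arm leave no order among the autosomal arms.

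Genes that work with the mitochondrial ribosome were read in the same way. All 15 mitochondrial aminoacyl-tRNA synthetase genes, which charge the transfer RNAs, had a peak over the gene in both lists, against 39.7% of all protein-coding genes, with a median length of 2727 bp and none on X. Their highest folds ran from 1.81 to 4.25 in replicate 1 and from 1.85 to 2.88 in replicate 2. LeuRS-m had 4.25 and 2.66, and ArgRS-m had 3.63 and 2.88. Of 9 translation factor genes, 7 had a peak in the extended span in both lists, where all protein-coding genes stood at 49.9%, the share to set beside the counts that follow. The initiation factor gene mIF3 had 3.17 and 2.40, the elongation factor gene mEFG1 2.67 and 2.55, and the release factor gene mRF1 2.82 and 2.25. Values for mEFTs were 2.63 and 2.11, for mIF2 2.56 and 2.13, for mRRF2 2.60 and 2.14 and for mRRF1 2.39 and 2.10. The elongation factor genes mEFTu1 and mEFTu2 were listed in replicate 2 only (2.71 and 2.40). Each of the 9 thus had a peak in replicate 2.

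Mitochondrial transcription and RNA genes, listed together with Roe1, which is not of this kind, had a peak in both lists in 7 of 11 cases. These were TFAM, which packages mitochondrial DNA (2.46 and 2.36), PolrMT, the mitochondrial RNA polymerase gene (2.36 and 2.12), mTerf5 (2.58 and 2.83), mTerf3 (1.88 and 2.14), SLIRP2 (2.83 and 2.24), bsf (2.26 and 2.21) and the co-chaperone gene Roe1 (1.82 and 2.40). mtTFB1, mTTF and SLIRP1 were listed in replicate 2 only (2.07, 1.72 and 2.10), and mtTFB2 in neither. Of the mitochondrial ribosomal genes known by other names, tko on X had no peak, and bonsai had 1.96 in replicate 2 only.

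Nuclear genes for subunits of the respiratory chain and ATP synthase had a peak in both lists in 31 of 80 cases (38.8%), with the complex I genes ND-B14 at 3.47 and 3.01, ND-B14.7 at 3.44 and 2.83 and ND-MWFE at 4.32 and 2.82. Cytoplasmic ribosomal protein genes stood at 44 of 93 (47.3%), with RpS29 at 3.52 and 3.10, RpS7 at 3.57 and 2.88 and RpL21 at 3.84 and 2.81. Proteasome genes stood at 24 of 48 (50.0%), with Prosbeta6 at 4.32 and 3.80, Rpn6 at 3.68 and 2.88 and Prosalpha2 at 3.93 and 2.57. Their median lengths were 1106, 1318 and 1381.5 bp, nearer to that of the members. Over the gene span itself the shares in both lists were 23.8, 30.1 and 27.1%, against 28.8% of the members. The respiratory, cytoplasmic ribosomal and proteasome lists were matched by symbol and also hold paralogs (related gene copies). Among these copies, ATPsynbetaL, RpL24-like and Rpt3R had a peak in both lists, and ND-20L, RpLP0-like and Prosalpha4T1 had none in either. Shares without such copies were not computed. The folds of ATPsynbetaL, 3.37 and 2.00, were the same as those of the synthetase gene IleRS-m on the same arm. Sharing of peaks between these related lists was not counted. On X, 2 of 12 respiratory, 2 of 15 cytoplasmic ribosomal and 1 of 6 proteasome genes had a peak in both lists. The share on X was 28.3% of all protein-coding genes and 10.3% of those up to 2000 bp. The member mRpL18 overlapped ox, a subunit gene of complex III, and its highest replicate 2 peak (2.74), 234 bp from the member, touched ox and had its summit in Dgkepsilon. None of these differences between lists was tested.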

How the data were processed

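Per the submitters' processing notes, reads were aligned with Bowtie2 and peaks called with MACS2 on dm6. Versions, settings, duplicate handling and any control library were not given in the sources used here. There is 1 deposited peak list for each replicate, with positions, the ratio (fold) of summit pileup to background, each with 1 added, -log10 p and -log10 q, and a deposited score, a whole-number form of -log10 q that was not used further. Folds start at 1.49 (replicate 1) and 1.31 (replicate 2). Fold and -log10 values are the authors', used within a list only. Pileup and background fragments were solved from fold and -log10 p, within 0.001 for 99.99% of peaks on the arms. Total reads are not given, and intervals cover counting error only.

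Genes came from a RefSeq table of Release 6, which gives spans without strand or exons, so gene ends replaced gene starts. Promoter motifs were not analysed here. Percentiles rank a fold among all peaks of its list. Overlaps of at least 1 bp were counted in Python 3.11.15 with numpy 2.4.6, pandas 2.3.3 and scipy 1.17.1, and the code was tested on simulated data. Classes split the large subunit at number 36 and the small at 21. Related lists were matched by symbol, 3 genes by synonym, with mTerf6 and LRPPRC2 unmatched. Alternatives were extensions of 0, 250 and 1000 bp, a floor of 5 on -log10 q, the 7230 peaks of each list with the highest -log10 p, summits, either or a single replicate, genes away from others, a reciprocal overlap of 50% and summits within 250 bp, and, added later, genes of up to 2000 bp and the arms 2L, 2R, 3L and 3R. Members and lists were chosen with earlier results of these data known. Named were the 12 members highest by the lower percentile, those with the largest difference, non-overlapping peaks or the longest coverage, 10 of described role, and in related lists all genes of short lists and the highest of long ones. Further names account for every member and were chosen after their values were seen.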

Additional observations from a re-analysis of the deposited data

How the results depend on the processing

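Causes were not tested. No paired analysis was possible because there is 1 group. The count of 38 members with a peak in both lists became 21 without extension and 19 with the 7230 top peaks of each list, against 28.8 and 26.0% of members and 39.7 and 27% of all protein-coding genes. The members' share, above that of all genes at first, was below it without extension, with 250 bp (35.6 against 44.6%), with the top peaks, with summits (39.7 against 46.3%), under a q floor of 5 (-log10) (37 against 39.1%) and in replicate 2 alone (69.9 against 70.6%). The 34 members with overlapping peaks became 21 without extension, 22 under a q floor of 5 (-log10) and 17 with the top peaks. The 37 members with a peak near a gene end became 7 with the end itself, 23 with 250 bp, 18 with the top peaks and 56 in either replicate. Genes reaching no other gene left 1 member, mRpS5, marked in each of these 3 counts. Single replicates gave 43 to 51 members with a peak, 42 to 51 near a gene end and median percentiles of 67.0 to 68.2. The mean of the median percentiles, 67.6 ± 0.865 (SD, n = 2), became 65.4 without extension, 72.1 with 1000 bp, 76.6 under a q floor of 5 (-log10), 83.0 with the top peaks, 65.4 with summits, 94.6 for mRpS5 alone, 65.7 for genes of up to 2000 bp and 71.0 on the large autosomal arms. With the top peaks, large-subunit genes fell from 13 to 8 and from 11 to 4, and small-subunit genes of higher number from 5 to 1, as they did under a q floor of 5 (-log10). The 2 members with unshared peaks became 16 when only an overlap with another gene span counted. Overlap between replicates has no value with 1 or either replicate, and the planned search for promoter motifs was not run. The limit of 2000 bp and the set of large arms were chosen after seeing the data. The other 31 alternative values were within 1.5 times the count or within 1 SD. Genes below the caller's threshold have no value here, and replicate 1 reached fewer weak peaks.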
